A study of Mus musculus with 2 samples.

Results

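The 10 genes described here are Spic, Cd163, Hmox1, Blvrb, Fth1, Ftl1, Slc40a1, Slc11a1, Tfrc and Tfr2. This set of iron handling genes is named for the red pulp macrophages of the spleen, but not all members are particular to those cells. They were chosen by symbol, and all 10 were found in both gene tables, among 16428 genes with a read in at least 1 library. The material was macrophages sorted 15 days after C57BL/6J mice, unirradiated and with a stated age of 6 to 8 weeks, had received 500000 leukaemia cells each. The leukaemia carried the MLL-AF9 fusion, a driver of acute myeloid leukaemia (AML), and the cells were marked with GFP. AML developed in all mice, which survived 25 to 30 days. There was 1 RNA-seq library of bone marrow macrophages and 1 of spleen macrophages, both from leukaemic mice. No healthy animals enter the comparison. The sources used here state neither the sort gates nor how many mice went into a library. With 1 library per tissue there was no replicate check, no test was run, and each difference is between these 2 libraries.

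Red pulp macrophages engulf ageing red cells, break their haemoglobin down and return the iron to plasma. Heme released in this process relieves the repressor Bach1, which allows the transcription factor Spic to be made, and Spic in turn is needed for these cells to form in mice. Heme oxygenase opens the heme ring, ferritin stores the freed iron, and ferroportin exports it. Transferrin receptors work in the opposite direction and bring iron into cells, above all into dividing cells and red cell precursors. Macrophages of bone marrow also handle iron, in the islands where red cells mature.

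Part of this program is controlled through the iron-responsive element, a short RNA hairpin bound by iron regulatory proteins when a cell lacks iron. Bound in front of the coding sequence, the proteins block translation, and bound behind it in Tfrc they protect the transcript from decay. The hairpins are shown because they divide the members into iron storage and export genes on the one hand and an uptake gene on the other. The pattern searched, on the transcript strand of protein-coding GENCODE M21 transcripts (GRCm38), was an unpaired C, a stem, the 6-base loop CAGTGN and the other side of the stem. All 5 bases before the loop had to pair with the 5 bases after it, G-U pairs allowed. It was found in 4 of the 10 members, Fth1, Ftl1, Slc40a1 and Tfrc, and in 1.34% of 21877 protein-coding genes searched. In each 30-base window below the loop is in capitals.
Fth1, leader, chr19:9982731-9982760, plus strand: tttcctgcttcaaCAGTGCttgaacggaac
Ftl1, leader, chr7:45459779-45459808, minus strand: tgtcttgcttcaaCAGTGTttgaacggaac
Slc40a1, leader, chr1:45925465-45925494, minus strand: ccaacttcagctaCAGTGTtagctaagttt
Tfrc, trailer, chr16:32631218-32631247, plus strand: taattatcggaagCAGTGCcttccataatt
Tfrc, trailer, chr16:32631597-32631626, plus strand: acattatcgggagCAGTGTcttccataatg
Tfrc, trailer, chr16:32631662-32631691, plus strand: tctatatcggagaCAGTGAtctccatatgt
Tfrc, trailer, chr16:32631709-32631738, plus strand: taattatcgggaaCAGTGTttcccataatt
Leader means the untranslated stretch before the coding sequence and trailer the one after it. Tfrc held 4 matches and the other three genes 1 each, and the hairpins of Fth1 and Ftl1 shared the letters ttcaa on the near side of the stem. Among 59 other iron and heme genes searched, only Keap1, which encodes a sensor of oxidative stress, held the pattern. The pattern is strict and misses hairpins with an imperfect stem or another loop. A gene without a match may therefore still carry an element. A match is a description of the letters and no measure of binding, and the RNA levels below do not report translation.

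The effective depth after TMM scaling was 9405947 uniquely placed reads for the bone marrow library, called marrow from here on, and 8457857 for spleen. CPM below is the read count scaled to that depth, and RPKM, used wherever genes are compared with each other, also divides by gene length. Intervals are exact 95% intervals and cover counting error only. The 9 core macrophage genes listed made up 0.0697% of the marrow reads and 0.158% of the spleen reads. The 24 listed neutrophil and granulocyte precursor genes made up 5.15% of the marrow reads and 0.261% of the spleen reads, and the 14 B cell genes 0.0661% in marrow and 0.638% in spleen. Genes that mark other cell types were thus read in both libraries. In bulk samples fewer cells of a type and less RNA per cell cannot be told apart, and this holds for every difference below.

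Of the 10 members, 1 was at least 2-fold higher in marrow, where 14.1% of 12970 measured genes were. Another 4 were at least 2-fold lower in marrow, which is to say higher in spleen, as were 14.6% of measured genes. The remaining 5 lay within 2-fold. Counted in either direction, 5 of 10 members and 28.8% of measured genes were past 2-fold. The gene above the line in marrow was Tfr2, and those below it were Spic, Hmox1, Slc11a1 and Blvrb. The median difference in log2(CPM + 1), bone marrow minus spleen, was -0.59 over the 10 members and 0.03 over all measured genes. Of the members, 8 had a negative difference and 2, Tfrc and Tfr2, a positive one, and 48.6% of measured genes had a negative one. The counting interval of the fold excluded equal levels for all 10 members.

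**Figure D1:**
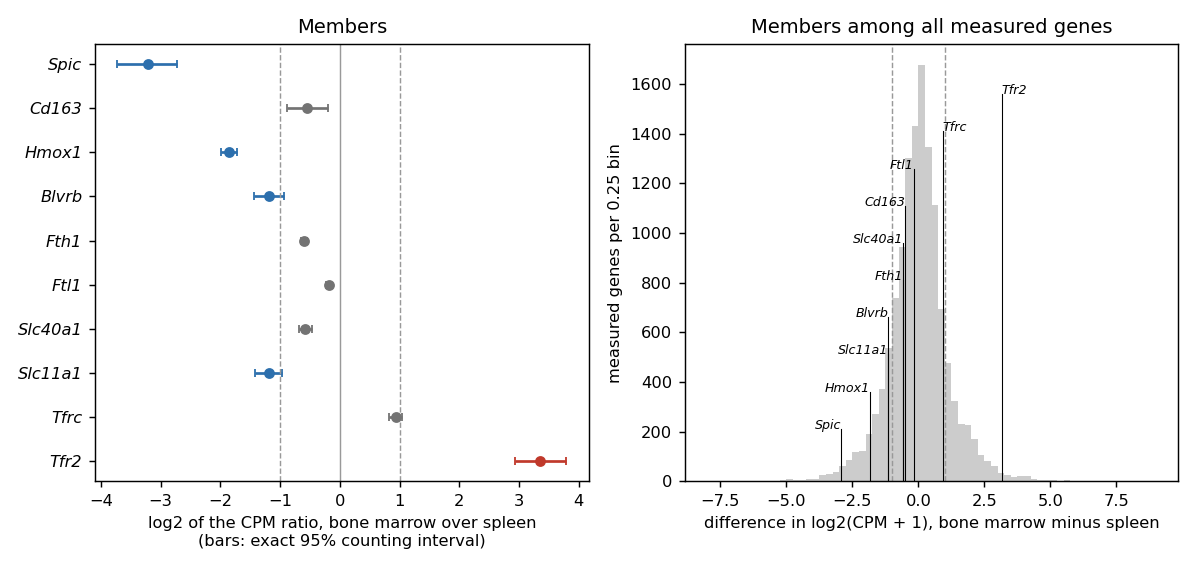
Left, the log2 of the CPM ratio of marrow over spleen for each member, with exact 95% counting intervals, red for at least 2-fold higher in marrow, blue for at least 2-fold higher in spleen and grey for within 2-fold. Right, the difference in log2(CPM + 1) for all 12970 measured genes as a histogram, with a line for each member, from Spic at -2.93 to Tfr2 at 3.15 (dashed lines mark 2-fold).

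Spic, the transcription factor among the members, had the lowest ratio of marrow to spleen of the 10. It had 39 reads in marrow and 323 reads in spleen, which is 4.15 CPM in marrow and 38.2 CPM in spleen. It was 9.21-fold lower in marrow (6.59 to 13.2), and 1.26% of measured genes had a ratio further towards spleen. In RPKM, Spic was at 3.20 in marrow, where 9608 was its rank among all genes, and at 30.9 in spleen, where its rank was 2850. Reads covered 80.0% of its length in marrow and 98.4% in spleen.

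The genes listed with Spic for transcription control, by heme, oxidative stress and related signals, were mostly within 2-fold. Of 11 other genes in that list, 9 lay within 2-fold on the log2(CPM + 1) scale, 1 was higher in marrow and 1 was lower. Among those 9, Maff was 2.07-fold lower in marrow by CPM (1.30 to 3.37). Mitf, also among them, was 1.80-fold higher in marrow (1.20 to 2.75). Bach1, the heme-sensing repressor of Spic and Hmox1, was at 99.7 CPM in marrow and 81.1 CPM in spleen. Nfe2l2, which encodes the activator Nrf2, was at 130 CPM in marrow and 94.8 CPM in spleen. Both differences were within 2-fold. Mafg, a small Maf protein that pairs with Bach1 and with Nrf2, was 2.60-fold higher in marrow (2.13 to 3.18), at 42.1 CPM against 16.2 CPM in spleen. Nr1h3, the oxysterol receptor LXR-alpha that splenic marginal zone macrophages require in mice, was 4.22-fold lower in marrow (3.19 to 5.65), at 6.80 CPM against 28.7 CPM in spleen.

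The promoter of Spic is shown because Spic is the member with the lowest ratio and is known in mice as a target of Bach1. The 250 bases before its start in the RefSeq table (GRCm38.p6) are chr10:88683024-88683273 on the minus strand. In GENCODE M21 the exons of Spic span chr10:88674772-88685015. There the stretch lies inside the gene, so the start, and each distance from it below, depends on the annotation.
Spic: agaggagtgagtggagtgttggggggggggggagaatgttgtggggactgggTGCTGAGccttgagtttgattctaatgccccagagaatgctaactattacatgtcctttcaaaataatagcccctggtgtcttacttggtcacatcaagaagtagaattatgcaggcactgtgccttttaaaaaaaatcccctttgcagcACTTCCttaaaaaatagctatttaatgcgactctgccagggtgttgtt
Capitals mark TGCTGAG, 198 to 192 bases before the start, and the reverse complement of GGAAGT, 48 to 43 bases before the start. TGCTGAG is only a part of the Maf recognition element to which Bach1 and small Maf proteins bind. The whole element was not searched, so a match to this part does not show a Bach1 site. GGAAGT is a core bound by ETS factors, the family of Spic. Both strands were searched over windows of 250 bases before to 50 after each start. TGCTGAG was present in 7.84% of 32851 promoters and GGAAGT in 23.8%. Of the 8 members with a promoter in the table, 2 held TGCTGAG (Spic and Tfr2) and 3 held GGAAGT (Spic, Tfr2 and Tfrc). These are counts of genes, some with several promoters, and do not compare directly with the shares of promoters. The TGCTGAG of Tfr2 and a GGAAGT of Tfrc lay after the start. The antioxidant response core TGACNNNGC was in none of the 13 promoters of these 8 members and in 12.4% of all promoters. Hmox1 and Slc40a1 were the members without an entry.

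By the rule of smallest distance on log2(CPM + 1) over the 2 libraries, the 3 genes closest to Spic were Arhgap27os3 (distance 0.05), Nectin1 (0.12) and Zbtb46 (0.16). Zbtb46, a transcription factor that marks conventional dendritic cells, had 35 reads in marrow and 301 reads in spleen. With 2 libraries such closeness says only that both levels were alike.

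Both heme breakdown enzymes among the members were lower in marrow by more than 2-fold. Hmox1, the inducible heme oxygenase, had 583 reads (62.0 CPM) in marrow and 1896 reads (224 CPM) in spleen, and was 3.62-fold lower in marrow (3.29 to 3.98). Blvrb, a reductase that acts on biliverdin and flavins downstream of heme oxygenase, had 201 reads (21.4 CPM) in marrow and 411 reads (48.6 CPM) in spleen, and was 2.27-fold lower in marrow (1.92 to 2.71). In each tissue Hmox1 was above Blvrb per length, 1.54 times in marrow and 2.44 times in spleen.

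The related enzymes that cells make constitutively did not show this. Hmox2, the constitutive heme oxygenase, was at 52.3 CPM in marrow and 45.6 CPM in spleen. Blvra, the main biliverdin reductase of adult tissue, was at 24.0 CPM in marrow and 24.8 CPM in spleen. Por, which supplies electrons to heme oxygenase, was at 90.6 CPM in marrow and 70.1 CPM in spleen. All 3 lay within 2-fold. Per length, Hmox1 stood at 37.1 RPKM beside 40.1 RPKM for Hmox2 in marrow, and at 140 RPKM beside 36.7 RPKM for Hmox2 in spleen.

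Ferritin genes were the most abundant members and lay within 2-fold between the tissues. Ftl1, the light subunit that helps lay down the iron core, had 9842 reads (1037 RPKM) in marrow and 10051 reads (1233 RPKM) in spleen. Fth1, the heavy subunit with ferroxidase activity, had 5206 reads (358 RPKM) in marrow and 7078 reads (567 RPKM) in spleen. In CPM, Ftl1 was 1.14-fold lower (1.10 to 1.17) and Fth1 1.51-fold lower (1.46 to 1.57) in marrow, both within 2-fold. These narrow intervals reflect deep counts and not replication. Together the pair took 74.2% of the members' reads in marrow and 74.2% in spleen.

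**Figure D2:**
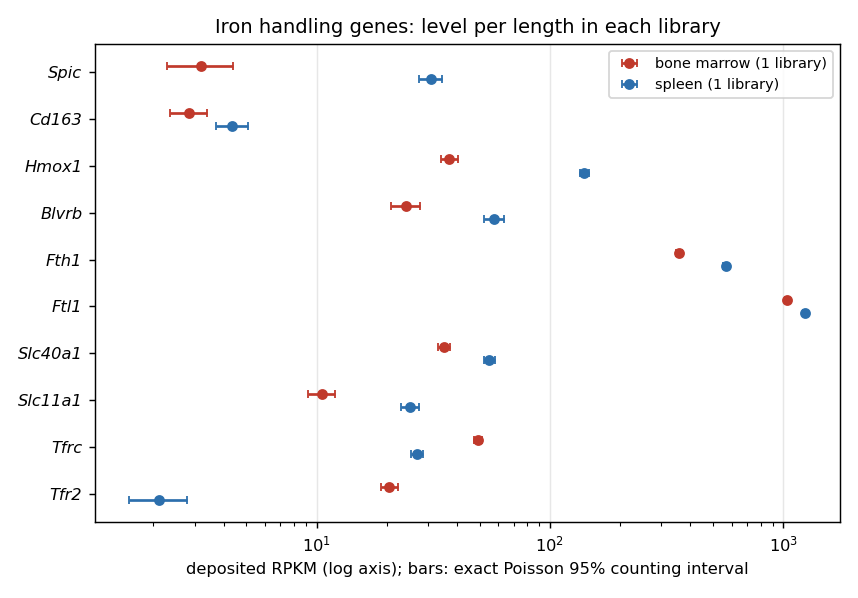
Deposited RPKM of each member on a log axis, marrow in red above spleen in blue, 1 library each, with exact Poisson 95% counting intervals. Ftl1 and Fth1 stand far to the right in both libraries, and the widest gaps belong to Tfr2, at 20.5 in marrow and 2.11 in spleen, and Spic, at 3.20 in marrow and 30.9 in spleen.

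The ratio of Ftl1 to Fth1 RPKM was 2.90 in marrow and 2.18 in spleen, but it rests on the length used for Fth1. The deposited length of Fth1 was 1511 bases, of which reads covered 57.6% (871 bases) in marrow and 58.7% (887 bases) in spleen. The Fth1-201 transcript of GENCODE M21 is 929 bases long, and on that length Fth1 would be at 582 RPKM in marrow and 922 RPKM in spleen. The comparison between tissues is not touched by the length. Both ferritin genes have pseudogenes, 5 in the RefSeq table and none with a row in either gene table, and because only uniquely placed reads were counted their levels are uncertain. Exons of Ftl1 also overlap annotated genes on both strands (Gm10252 and Gm22133), whereas no other member overlaps another gene's exons in GENCODE M21.

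Other genes of ferritin turnover stood on the marrow side. Ncoa4, the receptor that delivers ferritin to lysosomes so that its iron is released, was 2.70-fold higher in marrow (2.54 to 2.88), at 425 CPM against 157 CPM in spleen. The iron chaperones Pcbp1 and Pcbp2, RNA-binding proteins that load ferritin, were within 2-fold, at 494 and 491 CPM in marrow and 287 and 348 CPM in spleen. Ftmt, the mitochondrial ferritin, had no read in either library. The storage subunits and the gene for their breakdown therefore differed in opposite directions, the subunits within 2-fold.

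The iron export gene among the members leaned towards spleen by less than 2-fold. Slc40a1 encodes ferroportin, the iron exporter through which macrophages return iron to plasma. It had 1145 reads (122 CPM) in marrow and 1538 reads (182 CPM) in spleen, and was 1.49-fold lower in marrow (1.38 to 1.61). In RPKM it was at 35.2 in marrow, where its interval overlapped that of Hmox1 at 37.1, and at 55.1 in spleen, where Hmox1 stood apart at 140.

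Of the 5 other export genes listed, 2 were higher in marrow and 3 lay within 2-fold. Abcg2, a transporter that exports heme-related porphyrins, was 2.76-fold higher in marrow (2.05 to 3.77), at 19.2 CPM against 6.98 CPM in spleen. Heph, the ferroxidase that works with ferroportin in gut cells, had 10 reads in marrow and 0 in spleen, and its call was lost with a pseudocount of 5 CPM, a floor of 10 CPM or the deposited RPKM. Flvcr1, a heme exporter, was at 30.4 CPM in marrow and 53.9 CPM in spleen, within 2-fold. Mon1a, which guides ferroportin to the cell surface, was at 21.2 CPM in marrow and 26.0 CPM in spleen, within 2-fold.

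Slc11a1, also called Nramp1, pumps metal ions out of the phagosome. It had 233 reads (24.8 CPM) in marrow and 479 reads (56.6 CPM) in spleen, and was 2.29-fold lower in marrow (1.95 to 2.69). The lower bound of that interval lies just inside 2-fold, as did that of Blvrb. C57BL/6J mice are known to carry a form of this transporter with impaired function, which the RNA level does not show. Its relative Slc11a2, the transporter that moves transferrin-derived iron out of endosomes, was at 33.7 CPM in marrow and 43.2 CPM in spleen, within 2-fold.

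Cd163, the macrophage receptor for haemoglobin bound to haptoglobin, was scarce in both libraries. It had 123 reads (2.84 RPKM) in marrow and 161 reads (4.34 RPKM) in spleen, and was 1.46-fold lower in marrow (1.14 to 1.86), within 2-fold. It was the lowest member per length in marrow, with an interval that overlapped that of Spic, and second lowest in spleen, above Tfr2. On GENCODE lengths the lowest in marrow would instead be Spic, at 2.30 RPKM beside 2.90 RPKM for Cd163. Reads covered 68.4% of its length in marrow and 79.3% in spleen. Lrp1, a large endocytic receptor that takes up heme bound to hemopexin, was at 84.3 CPM in marrow and 150 CPM in spleen, within 2-fold.

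The transferrin receptors were the members that leaned towards marrow. Tfr2, a receptor of liver cells and red cell precursors, had 578 reads in marrow and 51 reads in spleen, or 61.5 CPM in marrow and 6.03 CPM in spleen. It was 10.2-fold higher in marrow (7.65 to 13.9), and 1.01% of measured genes had a ratio further towards marrow. Reads covered 98.2% of its length in marrow and 57.2% in spleen. Tfrc, the receptor by which most cells take up transferrin iron, had 2330 reads (248 CPM) in marrow and 1097 reads (130 CPM) in spleen. It was 1.91-fold higher in marrow (1.78 to 2.05), just within 2-fold on the log2(CPM + 1) scale, with a difference of 0.93.

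The place of the receptors among the members differed between the libraries. Per length Tfrc was 2.40 times Tfr2 in marrow and 12.8 times Tfr2 in spleen. The RPKM of Slc40a1 was 0.715 times that of Tfrc in marrow, so that uptake receptor stood above exporter, and 2.04 times that of Tfrc in spleen. Per length, only Ftl1 and Fth1 stood above Tfrc in marrow, at 49.2 RPKM for Tfrc, whereas in spleen Hmox1, Blvrb, Slc40a1 and Spic did so too, at 27.0 RPKM for Tfrc. In spleen its interval overlapped those of Spic above it and Slc11a1 below it. The place of Spic rests on the deposited length of 1266 bases. On the 1763 bases of Spic-201 in GENCODE M21, and with the others on their GENCODE lengths, Spic would be at 22.2 RPKM in spleen, below Tfrc at 27.1 RPKM and Slc11a1 at 25.0 RPKM.

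Of the 7 other uptake genes measured, 3 were higher in marrow, none in spleen, and 4 lay within 2-fold. Steap3, the ferrireductase of the transferrin cycle in red cell precursors, was 3.47-fold higher in marrow (2.69 to 4.52), at 31.2 CPM against 8.99 CPM in spleen. Slc39a8, a metal importer, was 2.86-fold higher (2.07 to 3.99), at 17.2 CPM in marrow against 6.03 CPM in spleen. Slc48a1, the transporter HRG1 that carries heme out of the phagolysosome of macrophages, was 2.46-fold higher (2.22 to 2.72), at 155 CPM in marrow against 63.1 CPM in spleen. Slc48a1 and Hmox1, which act in succession on heme from engulfed red cells, thus differed in opposite directions.

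The iron sensors of the cell were nearly equal. Aco1 and Ireb2, the iron regulatory proteins that bind the hairpins shown above, were at 44.3 and 103 CPM in marrow and at 49.4 and 119 CPM in spleen. Fbxl5, which marks the Ireb2 protein for degradation when iron is ample, was at 72.4 CPM in marrow and 88.3 CPM in spleen. All 3 lay within 2-fold. The members with a leader hairpin, Fth1, Ftl1 and Slc40a1, had differences in log2(CPM + 1) of -0.60, -0.18 and -0.58, against 0.93 for Tfrc with its trailer hairpins, all within 2-fold.

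Over the 9 iron and heme lists, 52 genes that are not members were measured. Their median difference was 0.14, and 38 were within 2-fold, 12 higher in marrow and 2 lower. The highest were Lcn2, Ltf and Hp, whose proteins bind siderophores, iron and haemoglobin. They were 18.8-fold (17.8 to 20.0), 15.1-fold (14.5 to 15.7) and 13.7-fold (12.5 to 15.0) higher in marrow. Neutrophils store these proteins in granules, Lcn2 and Ltf also stand in the neutrophil list, and 22 of 23 measured genes of that list were higher in marrow. The 2 genes higher in spleen were Nr1h3 and Smad7. Smad7, an inhibitor of the signal that induces hepcidin, was 4.12-fold lower in marrow (3.53 to 4.83), at 22.0 CPM against 90.7 CPM in spleen. Hamp, the gene of the iron hormone hepcidin itself, had no read in either library. Of 10 genes of mitochondrial iron import and iron-sulfur assembly, 9 lay within 2-fold and Abcb10, a partner of the iron importer mitoferrin, was 2.39-fold higher in marrow (2.08 to 2.76).

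**Figure D3:**
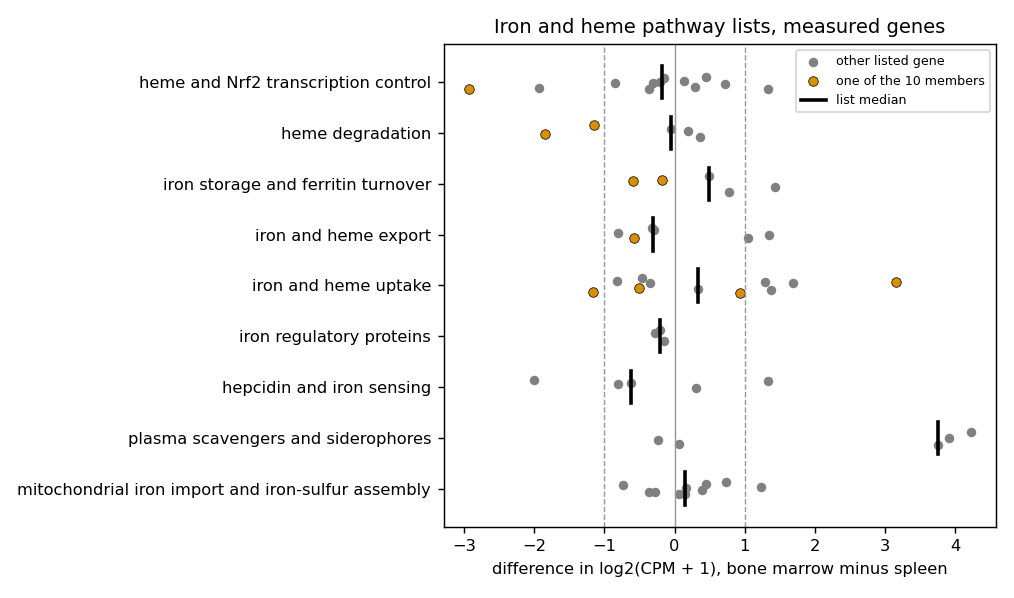
Difference in log2(CPM + 1), bone marrow minus spleen, of each measured gene in 9 iron and heme lists, members in orange and other genes in grey, with the list median as a black bar and 2-fold as dashed lines. Members of heme degradation lie left of the other genes in that list, and in iron and heme uptake they run from Slc11a1 at -1.16 to Tfr2 at 3.15.

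Markers of macrophages and of other cell types differed along with the members. Among 11 red pulp macrophage markers that are not members, the median was -1.41, with 8 at least 2-fold lower in marrow and 3 within 2-fold. Cd5l, which resident macrophages secrete and which binds lipids and microbes, was 8.44-fold lower in marrow (6.67 to 10.8), and Itgad, the integrin CD11d of red pulp macrophages, 6.82-fold lower (5.40 to 8.69). C6, a complement component, had 0 reads in marrow and 134 reads in spleen. Vcam1, an adhesion molecule found on macrophages of both tissues, was at 105 CPM in marrow and 200 CPM in spleen, within 2-fold. Siglec1 and Pparg were nearly equal, at 18.6 and 10.8 CPM in marrow and 19.3 and 11.2 CPM in spleen.

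The core macrophage list had 4 of 9 genes lower in marrow by at least 2-fold and 5 within 2-fold on the log2(CPM + 1) scale, with a median of -0.96 and a summed level of 713 CPM in marrow and 1546 CPM in spleen. Itgax, the integrin CD11c, supplied 69.6 CPM of that sum in marrow and 411 CPM in spleen, and it also stands in the dendritic cell list. Cd14, a coreceptor for bacterial lipopolysaccharide, leaned the other way, at 13.6 CPM in marrow and 6.74 CPM in spleen. Its CPM ratio was 2.02 (1.47 to 2.81) and its difference 0.92, and it was called higher in marrow with a pseudocount of 0.1 CPM. Conventional dendritic cell markers had 9 of 12 genes lower in marrow, with a median of -2.63 and a summed level of 289 CPM in marrow and 1471 CPM in spleen. All 14 B cell genes and all 14 T cell genes were at least 2-fold lower in marrow too, as were 6 of 7 plasma cell genes. Of 9 NK cell genes 3 were lower in marrow, 5 were within 2-fold and 1 was higher. That gene was Nkg7, a protein of cytotoxic granules, at 195 CPM in marrow and 91.4 CPM in spleen, and the list summed to 390 CPM in marrow and 422 CPM in spleen. The part of these cells in the lower levels of Spic, Hmox1, Slc11a1 and Blvrb in marrow was not tested.

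On the marrow side, all 15 markers of cycling cells were at least 2-fold higher, with a median of 2.09 and a summed level of 4687 CPM in marrow and 1246 CPM in spleen. Of 22 erythroid genes other than the receptors, 15 were within 2-fold, 6 higher in marrow and 1 lower. Their median was 0.23 and their summed level was 578 CPM in marrow and 301 CPM in spleen. None of these erythroid genes was at 0 reads in either library, and Car2, a carbonic anhydrase of red cells, was at 142 CPM in marrow and 52.5 CPM in spleen. Stem and progenitor genes had 9 of 12 higher in marrow (median 2.70, summed 1765 CPM in marrow and 536 CPM in spleen). Megakaryocyte and platelet genes had 9 of 13 measured genes higher (median 2.004, summed 457 CPM in marrow and 97.2 CPM in spleen). Leukaemia cells were not told apart from normal cells in any of these lists. The part of these cells, normal or leukaemic, in the levels of Tfrc and Tfr2 was not tested.

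**Figure D4:**
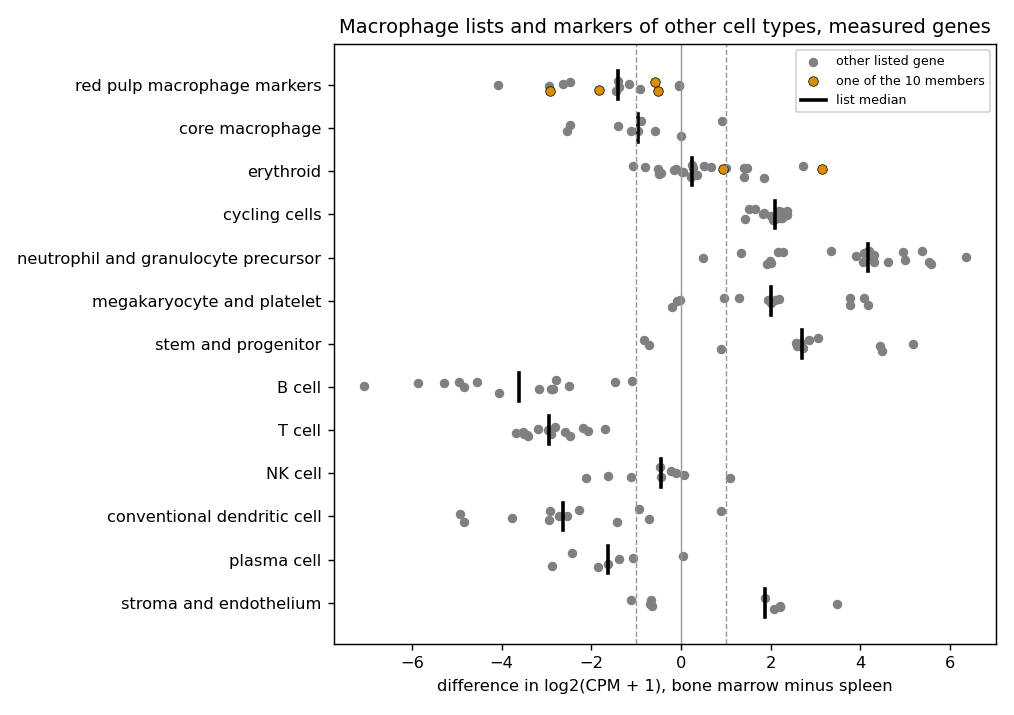
Difference in log2(CPM + 1), bone marrow minus spleen, of each measured gene in macrophage lists and in lists of markers of other cell types, members in orange and other genes in grey, with the list median as a black bar and 2-fold as dashed lines. Red pulp and core macrophage genes lie mostly to the left with medians of -1.41 and -0.96, and Tfr2 at 3.15 lies to the right of all other erythroid genes, whose highest difference was 2.72.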

How the data were processed

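RNA-seq was carried out on sorted macrophages, 1 library per tissue. For each Entrez gene the authors deposited, per the file headers, the count of reads placed uniquely, its length in bases, the percent of it that reads covered, and its RPKM. The sources used here name no aligner, build, annotation or strand. A gene missing from a table was given 0 reads. Genes were joined on the Entrez identifier, of which 16379 of 16428 matched RefSeq (GRCm38.p6).

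TMM factors (edgeR 4.0.16 in R 4.3.3) scaled the counts to effective depths of 9405947 reads in bone marrow and 8457857 in spleen, where a count of 0 allows 3 reads, or 0.319 and 0.355 CPM. A gene was measured if either library gave it 1 CPM and 10 reads or more, and at least 2-fold on log2(CPM + 1), which understates low genes, was called a difference. Fold intervals are exact conditional binomial (Clopper-Pearson, scipy 1.17.1), RPKM intervals exact Poisson, both for counting error only, since PCR reads are not independent molecules.

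Members and lists were chosen with earlier results of these data known. Genes that could be named were the members, the 3 genes closest to Spic, up to 4 other genes of largest ratio and the most abundant in each iron or macrophage list, and the 2 most abundant of each marker list. Not all are printed, and by the last rule only Car2, Itgax, Nkg7 and Tfrc are. Bach1, Nfe2l2, Keap1, Slc11a2, Ftmt, Mon1a, Hamp, Siglec1, Pparg and Cd14 were added after their values were seen. Alternatives included DESeq2 1.42.0 size factors.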

Additional observations from a re-analysis of the deposited data

How the results depend on the processing

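Nothing is replicated, so no alternative leaves out a library. No paired analysis was possible because each tissue has 1 library. The 9 alternatives were DESeq2 size factors, library totals alone, TMM factors without markers of other cell types, the deposited RPKM, a 4-fold rule, pseudocounts of 0.1 and 5 CPM, a floor of 10 CPM and none. All 10 members kept their direction under each of them, and their 2-fold call under each except the 4-fold rule. With the 4-fold rule, 1 member was higher in spleen and 8 were within it, and the counts over all measured genes were 573 towards marrow and 530 towards spleen. With a pseudocount of 5 CPM, 1210 measured genes were higher in spleen. Spic ranged from -3.17 to -2.24 and Tfr2 from 2.59 to 3.33, the ends being set by the pseudocounts. Tfrc ranged from 0.84 to 0.94 and stayed within 2-fold. The median of all 24 erythroid genes, receptors included, was 0.25, and 1.16 with a floor of 10 CPM. The megakaryocyte median became 0.99 with a pseudocount of 5 CPM, 2.57 with one of 0.1 CPM, 1.52 with RPKM and 3.76 with a floor of 10 CPM. The conventional dendritic cell median became -1.98 with a pseudocount of 5 CPM and -2.32 with RPKM, and that of the stem and progenitor genes 2.08 and 2.38. That of the scavengers and siderophores was 3.76, and 1.91 with no floor. The cause of these shifts was not tested.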
